A study of Rattus norvegicus with 12 samples.

Results

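The heat shock and endoplasmic reticulum (ER) stress genes of rat liver were examined 6 h after a single oral dose of D-penicillamine. A list of 52 gene names was used, and every probe set was taken whose annotation holds 1 gene symbol only, that symbol being on the list. Probe sets that carry a listed symbol together with another symbol were left out. This gave 59 probe sets for 48 genes, out of 15866 probe sets for 10411 named genes. Treated rats (n = 8) received D-penicillamine at 150 mg/kg, and vehicle rats (n = 4) received water. All 12 were male Brown Norway rats of 150 to 170 g, an inbred strain, killed at 6 h. Their age is not given in the sources used here. D-penicillamine, an amino acid with a free thiol, chelates copper and is used in Wilson's disease and rheumatoid arthritis. The series title places it among drugs with idiosyncratic reactions, which appear in some individuals only. Liver RNA of each rat was hybridised to 1 Affymetrix array, and the authors' values are log2 RMA values (background corrected, normalized between arrays and summarised per probe set).

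Of the 52 names, 4 gave no probe set of their own. The chaperone genes Hspa8 and Hsp90aa1 were covered only by probe sets that also carry another symbol, and Atf6 and Sesn2 by none in the annotation used. For 9 genes several probe sets were measured, and such a gene is represented by whichever probe set had the highest mean, unless another is named. No probe set was filtered for low signal, so all 59 were tested.

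Misfolded proteins are met by separate systems in separate compartments. In the cytosol, the factor HSF1 binds heat shock elements and induces chaperones of the Hsp70, Hsp90, Hsp40 and small heat shock families. In the ER, the sensors ATF6, IRE1 and PERK start the unfolded protein response. ATF6 and XBP1 raise ER chaperones through ER stress elements, while PERK, like other kinases of the initiation factor eIF2, raises translation of ATF4 and thereby amino acid synthesis and CHOP (gene Ddit3). Hepatocytes secrete most plasma proteins and carry a large load of ER chaperones.

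These elements were looked for in the 250 bases before the start of each gene, from RefSeq on assembly GRCr8. The table held promoters of 43 of the 52 genes and, with these included, of 19005 protein-coding genes. The ER stress element was searched on both strands as CCAAT and CCACG with any 9 bases between them. It was found in 7 of the 43 and in 18 of all 19005 genes (0.0947%). All matches among the stress genes are shown because they mark the genes with the element in this form. Other forms of the element were not searched, so a gene without a match, such as Herpud1, is not shown to lack it. Each is written along the strand on which it reads as the element, with its fixed letters in capitals.
Hspa5 (chr3:38452973-38452991, plus strand): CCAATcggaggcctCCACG
Hsp90b1 (chr7:23012451-23012469, minus strand): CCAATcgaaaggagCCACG
Hsp90b1 (chr7:23012347-23012365, plus strand): CCAATcgtgcctcaCCACG
Creld2 (chr7:121789239-121789257, minus strand): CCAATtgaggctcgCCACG
Canx (chr10:35158069-35158087, minus strand): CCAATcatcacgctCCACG
Calr (chr19:40213135-40213153, minus strand): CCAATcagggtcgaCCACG
Xbp1 (chr14:84604558-84604576, plus strand): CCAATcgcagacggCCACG
Dnajc3 (chr15:102432534-102432552, plus strand): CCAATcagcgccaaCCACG

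Of these 7 genes, 5 encode ER folding proteins and the other two are Xbp1 and Dnajc3 of the unfolded protein response. The shorter CCAAT box alone, which forms part of that element, stood in 10 of 10 searched promoters of ER chaperone genes, against 36.9% of all genes. It also stood in 5 of 5 searched unfolded protein response genes, 9 of 18 heat shock genes and 5 of 10 integrated stress response genes. The core of the heat shock element was searched as GAANNTTC or TTCNNGAA, which read the same on both strands and can overlap each other. It was present in 12 of 18 searched heat shock genes and in 13.3% of all genes. Hspd1 and Hspe1, which face each other across 1 promoter, share their matches. The composite element of C/EBP and ATF factors, TGATGNAA on both strands, was found in Chac1, Nupr1, Trib3 and Herpud1 and in 3.16% of all genes. A further element of the unfolded protein response, TGACGTGG on both strands, was found in 2 of the 43 genes and in 0.6% of all genes. Those were the ER chaperone gene Hyou1 and the heat shock gene Bag3. A match describes the letters only, and binding was not measured.

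The windows of 4 genes are given because their values are described below. Each shows the 250 bases before the start, 5′ to 3′ on the gene's strand, with the fixed letters of the heat shock core (Hspb8, Hsph1), the ER stress element (Creld2) or the composite element (Herpud1) in capitals.
Hspb8 (chr12:45837058-45837307, plus strand): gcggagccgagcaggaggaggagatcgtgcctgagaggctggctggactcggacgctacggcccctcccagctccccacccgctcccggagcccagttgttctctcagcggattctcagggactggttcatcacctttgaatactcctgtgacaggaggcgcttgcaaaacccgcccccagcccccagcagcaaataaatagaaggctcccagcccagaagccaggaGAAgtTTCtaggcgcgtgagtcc
Hsph1 (chr12:10427118-10427367, plus strand): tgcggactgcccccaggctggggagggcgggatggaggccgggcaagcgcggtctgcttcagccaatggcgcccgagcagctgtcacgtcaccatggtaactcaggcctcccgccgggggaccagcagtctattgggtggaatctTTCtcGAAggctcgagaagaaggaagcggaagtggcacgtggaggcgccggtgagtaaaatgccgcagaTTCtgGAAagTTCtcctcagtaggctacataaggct
Creld2 (chr7:121789134-121789383, plus strand): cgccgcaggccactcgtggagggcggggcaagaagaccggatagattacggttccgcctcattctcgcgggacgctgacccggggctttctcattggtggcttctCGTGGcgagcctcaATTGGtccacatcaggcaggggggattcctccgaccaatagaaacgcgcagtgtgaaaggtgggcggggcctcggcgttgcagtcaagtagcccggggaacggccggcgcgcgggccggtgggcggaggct
Herpud1 (chr19:10614708-10614957, minus strand): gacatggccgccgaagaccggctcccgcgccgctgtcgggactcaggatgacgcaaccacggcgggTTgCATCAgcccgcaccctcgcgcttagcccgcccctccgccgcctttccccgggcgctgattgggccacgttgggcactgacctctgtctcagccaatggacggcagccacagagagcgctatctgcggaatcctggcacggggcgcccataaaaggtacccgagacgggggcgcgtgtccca
The element of Creld2 reads on the strand opposite to the gene, so its letters appear here in reverse complement, and the same holds for the composite element of Herpud1.

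The libraries were alike in most respects. Array medians lay between 6.30 and 6.35 and correlations between arrays between 0.987 and 0.998. The excess of 3' over 5' control signal (Gapdh, beta-actin), a log2 measure of RNA integrity and labelling, ran from 0.43 to 0.605 in D-penicillamine rats and from 0.495 to 1.185 in vehicle rats. Vehicle rat 3 held the highest value, and an exact two-sided permutation test of the groups gave p = 0.103 (8 against 4). D-penicillamine rat 4 lay farthest from its group, at a root mean square distance of 0.195 over all probe sets, against 0.0932 to 0.162 in the other rats. All arrays were scanned on 1 day and all 4 vehicle arrays before the first treated one, so order of scanning and treatment cannot be told apart. Of 6 hepatocyte markers 5 were measured, with a mean log2 value of 13.80 to 13.94 in D-penicillamine rats and 13.83 to 13.92 in vehicle rats. The 6 measured Kupffer cell markers of 8 averaged 8.11 to 8.30 in D-penicillamine rats and 8.00 to 8.23 in vehicle rats, and all 6 had a positive difference. Of these 6, 3 had an unadjusted p under 0.05, against 6.36% of all named genes. The 2 measured neutrophil markers of 4 averaged 4.59 to 5.20 in D-penicillamine rats and 4.54 to 4.72 in vehicle rats. The 5 measured T and B cell markers of 6 averaged 4.63 to 4.80 in D-penicillamine rats and 4.61 to 4.72 in vehicle rats. The 6 stellate cell markers averaged 6.58 to 6.79 in D-penicillamine rats and 6.61 to 6.84 in vehicle rats. Only 1 of the 6 had a positive difference, the median difference was -0.071 and 3 had an unadjusted p under 0.05. Of 3 measured cholangiocyte markers 1 had a positive difference and 1 an unadjusted p under 0.05. Positive were 0 of 2 measured endothelial and 2 of 2 measured erythroid markers, with 0 at an unadjusted p under 0.05. RMA values have no zero, and the part of other cell types in the results was not tested. In whole liver, fewer cells of a type and less RNA per cell cannot be told apart.

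The main result was that D-penicillamine and vehicle livers differed little in these genes, and no member passed the test. In limma, 0 of 59 probe sets reached an adjusted p of 0.05 (Benjamini-Hochberg over all 15866), with a smallest adjusted p of 0.693. Over all probe sets 0% passed. At an unadjusted p under 0.05 stood 4 of the 59, or 6.78%, against a background of 6.16% of all probe sets. Of these 4, Hspb8, Hsph1 and Herpud1 were higher after D-penicillamine (background 2.68%) and Cryab was lower (background 3.48%). No member had groups that did not overlap, against 0.574% of all probe sets. The share of members is thus near the background.

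**Figure D1:**
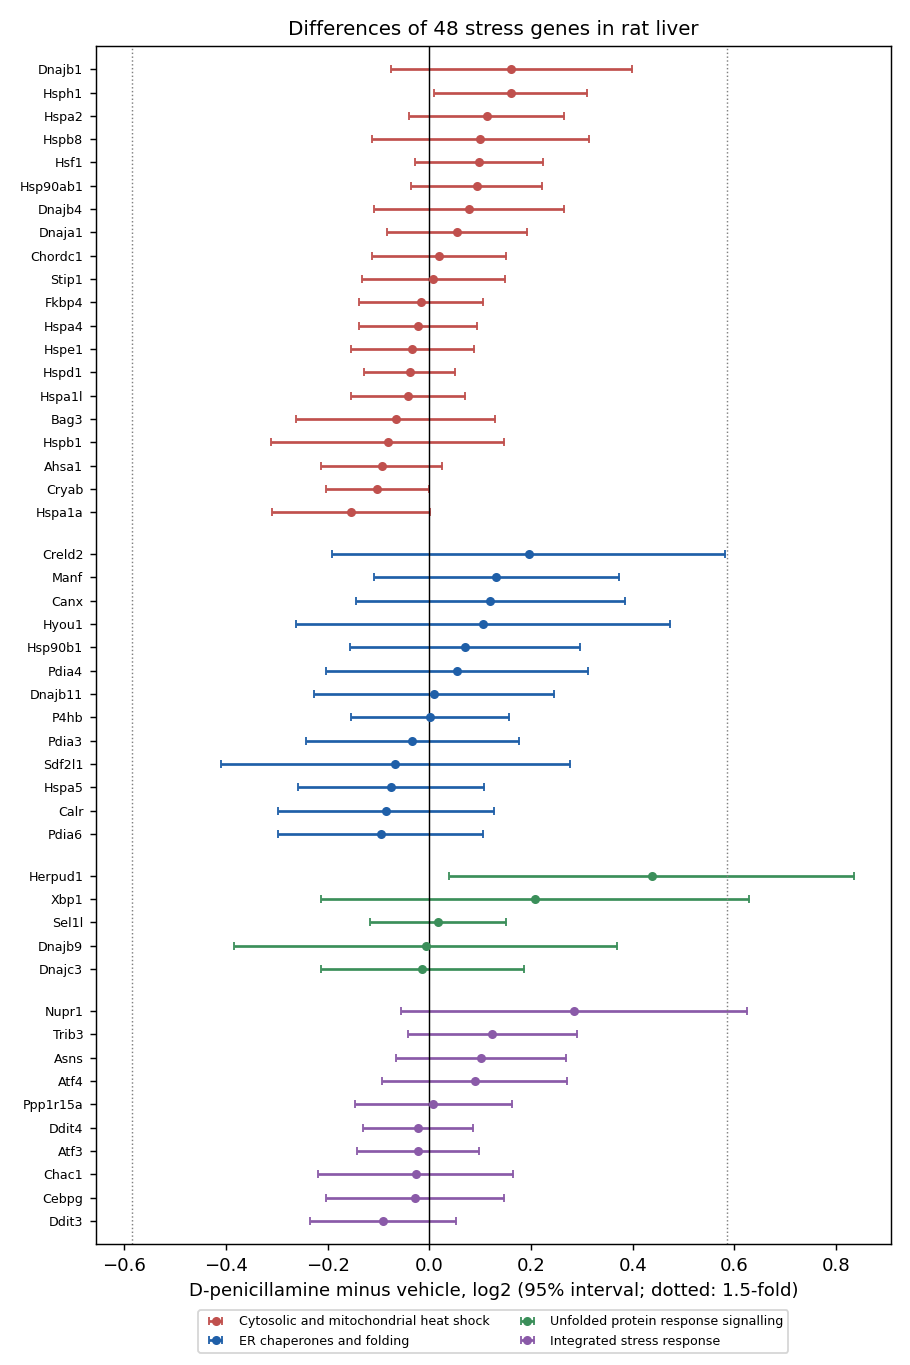
Difference between D-penicillamine (n = 8) and vehicle (n = 4) livers for 48 stress genes, as log2 with 95% intervals from limma, coloured by role and ordered by size within each role. Intervals of 45 of the 48 genes include 0, and those of Herpud1, Xbp1 and Nupr1 extend past the dotted line of a 1.5-fold change.

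The intervals limit how large a change could have been. For 45 of 48 genes (93.8%) the whole 95% interval was inside 1.5-fold up or down, against 98.7% of all named genes. The median difference over the 48 genes was 0.0075 on the log2 scale, with 26 positive and 22 negative, against a median of -0.0037 over all named genes. The median absolute difference was 0.077, against 0.049 over all named genes.

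The heat shock genes of cytosol and mitochondria numbered 20, and 10 had a positive and 10 a negative difference. Their median was -0.0044, and all 20 intervals lay within 1.5-fold. At an unadjusted p under 0.05 stood 1 higher (Hsph1) and 1 lower (Cryab) when each gene is taken by its brightest probe set, or 10.0% of the 20, against 6.36% of all named genes.

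Hspa1a, the main stress-inducible Hsp70, ran from 5.95 over a median of 6.21 to 6.39 in D-penicillamine rats, against 6.35, 6.43, 6.25 and 6.30 in vehicle rats 1 to 4. Of the 8 treated rats, 6 lay below every vehicle rat. The difference was -0.15 (SE 0.07, 95% interval 0.807 to 1.00-fold, adjusted p = 0.807 in limma). Hspa1a has a near-identical copy, Hspa1b, whose transcripts a probe set may share. A further 1 probe set carries the symbol Hspa1a together with another symbol, and it was left out, so its values are not given. Hspa1l, a related gene used mainly in testis, differed by -0.04 (SE 0.05). Hspa2, another Hsp70 best known from testis, differed by 0.11 (SE 0.07), with values of 4.15 to 4.54 in D-penicillamine rats and 4.18 to 4.32 in vehicle rats. The lowest value of any probe set on the arrays was 3.45.

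Hspb8, a small heat shock protein that works with Bag3 in the removal of aggregates, had the smallest p among the members. One of its 2 probe sets, not the one standing for the gene in the counts, ran from 7.60 over 7.77 to 7.94 in D-penicillamine rats, against 7.50, 7.49, 6.93 and 7.68 in vehicle rats. All 8 treated rats lay above the vehicle mean and 6 above every vehicle rat, while vehicle rat 3 stood lowest of all 12. The difference was 0.38 (SE 0.11, 1.30-fold, unadjusted p = 0.0030, adjusted p = 0.693 in limma). It was 0.22 without vehicle rat 3 and 0.47 without vehicle rat 4. The probe set standing for Hspb8 had 7.51, 7.89 and 8.00 as lowest, median and highest in D-penicillamine rats and 7.67, 7.76, 7.47 and 7.92 in vehicle rats. Those groups overlapped widely, and the difference was 0.10 (SE 0.10), or 0.022 without vehicle rat 3 and 0.17 without vehicle rat 4. Vehicle rat 3 is the rat with the 3' over 5' excess of 1.185. With that measure as a covariate in limma, the probe set with the smallest p came to 0.22 (SE 0.08). The one standing for Hspb8 came to 0.027 (SE 0.11). Beyond that fit, the part of the excess in this and the other differences that vehicle rat 3 moves was not tested. Bag3, the partner, differed by -0.07 (SE 0.09).

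Hsph1, which exchanges the nucleotide of Hsp70 proteins, ran from 8.51 over 8.60 to 8.79 in D-penicillamine rats, against 8.32, 8.55, 8.32 and 8.67 in vehicle rats. The groups overlapped, and all 8 treated rats lay above the vehicle mean. The difference was 0.16 (SE 0.07, 1.12-fold, adjusted p = 0.784 in limma), or 0.11 without vehicle rat 3 and 0.23 without vehicle rat 4. Cryab, a small heat shock protein of lens and muscle, ran from 6.76 over 6.81 to 6.91 in D-penicillamine rats, against 6.95, 6.99, 6.95 and 6.83 in vehicle rats. Its difference was -0.10 (SE 0.05, adjusted p = 0.807 in limma), with 8 of 8 treated rats below the vehicle mean.

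Hspb1, a small heat shock protein that binds unfolding proteins and actin, ran from 6.41 over 6.93 to 7.09 in D-penicillamine rats, against 6.77, 7.07, 6.91 and 7.08 in vehicle rats. D-penicillamine rat 8 was the lowest of all 12, and the difference was -0.08 (SE 0.11), or -0.016 without that rat and -0.145 without vehicle rat 1. Dnajb1, an Hsp40 that hands clients to Hsp70, ran from 7.69 over 7.96 to 8.10 in D-penicillamine rats, against 7.75, 7.99, 7.34 and 8.03 in vehicle rats. Its difference of 0.16 (SE 0.11) came to 0.015 without vehicle rat 3, whose value was the lowest of all, and to 0.25 without vehicle rat 4. The second probe set of Dnajb1 differed by 0.09 (SE 0.06).

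The remaining heat shock genes stayed within 0.12 of 0 in every probe set. Hsp90ab1, the constitutive cytosolic Hsp90, gave 0.09 (SE 0.06) by one probe set and -0.12 (SE 0.07) by the other, so its direction depended on the probe set. Without vehicle rat 3 the first value came to 0.0175 and the second to -0.17 (SE 0.08, unadjusted p = 0.046 in limma). No member passed the adjustment in that fit. Dnaja1, a further Hsp40, likewise gave 0.05 (SE 0.06) and -0.02 (SE 0.06). Co-chaperones of Hsp90 did not pass either, with Ahsa1 at -0.09 (SE 0.06), Stip1 at 0.0075 (SE 0.07), Chordc1 at 0.02 (SE 0.06) and Fkbp4 at -0.02 (SE 0.06). The mitochondrial chaperonin genes Hspd1 and Hspe1 differed by -0.04 (SE 0.04) and -0.03 (SE 0.06). Hsf1, the master factor of the response, differed by 0.10 (SE 0.06), Dnajb4 by 0.08 (SE 0.09) and Hspa4 by -0.02 (SE 0.05). The 11 heat shock genes with an element core had a median of 0.0075, with 6 positive and 5 negative.

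The ER chaperone and folding genes numbered 13, with 8 positive and 5 negative differences and a median of 0.0088. None reached an unadjusted p under 0.05, against 6.36% of all named genes, and all 13 intervals lay within 1.5-fold. Among treated rats their median SD was 0.23, and their median absolute difference was 0.076. Over all named genes these were 0.11 and 0.049, so the SD was the larger there too.

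Hspa5 encodes BiP, the Hsp70 of the ER and the classical reporter of ER stress. It ran from 11.27 over 11.51 to 11.77 in D-penicillamine rats, against 11.47, 11.70, 11.57 and 11.65 in vehicle rats. The highest and the lowest of all 12 values were both in treated rats, rat 4 and rat 1. The difference was -0.08 (SE 0.09, 95% interval 0.836 to 1.08-fold, adjusted p = 0.893 in limma), or -0.040 without D-penicillamine rat 1, -0.042 without vehicle rat 2 and -0.12 without vehicle rat 1.

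Hsp90b1, the Hsp90 of the ER, ran from 11.10 over 11.45 to 11.85 in D-penicillamine rats, against 11.37, 11.48, 11.46 and 11.31 in vehicle rats. Rat 1 was again the lowest and rat 4 the highest, and the difference was 0.07 (SE 0.11), or 0.016 without D-penicillamine rat 4 and 0.12 without D-penicillamine rat 1. Creld2, a secreted ER stress protein with disulfide isomerase activity, ran from 8.58 over 8.99 to 9.85 in D-penicillamine rats, against 8.82, 9.06, 8.80 and 8.89 in vehicle rats. The treated rats thus spanned 2.41-fold and the vehicle rats 1.20-fold. Its difference of 0.20 (SE 0.18, adjusted p = 0.881 in limma) came to 0.086 without D-penicillamine rat 4 and up to 0.27 without other single rats.

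Hyou1, a large Hsp70-like chaperone and exchange factor of BiP, ran from 8.35 over 8.66 to 9.59 in D-penicillamine rats, against 8.71, 8.89, 8.58 and 8.65 in vehicle rats. That is a span of 2.36-fold in treated rats and 1.24-fold in vehicle rats. The difference of 0.10 (SE 0.17) was -0.0061 without D-penicillamine rat 4 and up to 0.17 without other single rats. The second probe set of Hyou1 gave 0.22 (SE 0.16), or 0.027 without vehicle rat 3 and up to 0.35 without other single rats. Manf, a secreted protein retained by BiP, ran from 9.73 over 10.09 to 10.51 in D-penicillamine rats, against 9.84, 10.08, 9.90 and 10.03 in vehicle rats. Its difference was 0.13 (SE 0.11), or 0.072 without D-penicillamine rat 4 and up to 0.18 without other single rats. Sdf2l1, a partner of BiP and Dnajb11, spanned 8.99 to 9.97 in D-penicillamine rats and 9.37 to 9.76 in vehicle rats, and differed by -0.07 (SE 0.16).

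The disulfide isomerases, which form and rearrange cysteine bonds of secreted proteins, did not pass the test. Pdia4 was at 0.05 (SE 0.12), Pdia6 at -0.10 (SE 0.09), P4hb at 0.0013 (SE 0.07) and Pdia3 at -0.03 (SE 0.10), with -0.09 (SE 0.05) by its second probe set. The lectin chaperones of glycoproteins were at -0.08 (SE 0.10) for Calr and 0.12 (SE 0.12) for Canx. Canx ran from 9.96 over 10.16 to 10.28 in D-penicillamine rats, against 10.11, 10.32, 9.45 and 10.27 in vehicle rats. Vehicle rat 3 was the lowest, and without it the difference was -0.08. The second probe set of Canx was at -0.08 (SE 0.06) and the third at 0.02 (SE 0.07). Dnajb11, the Hsp40 of BiP, was at 0.0088 (SE 0.11).

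**Figure D2:**
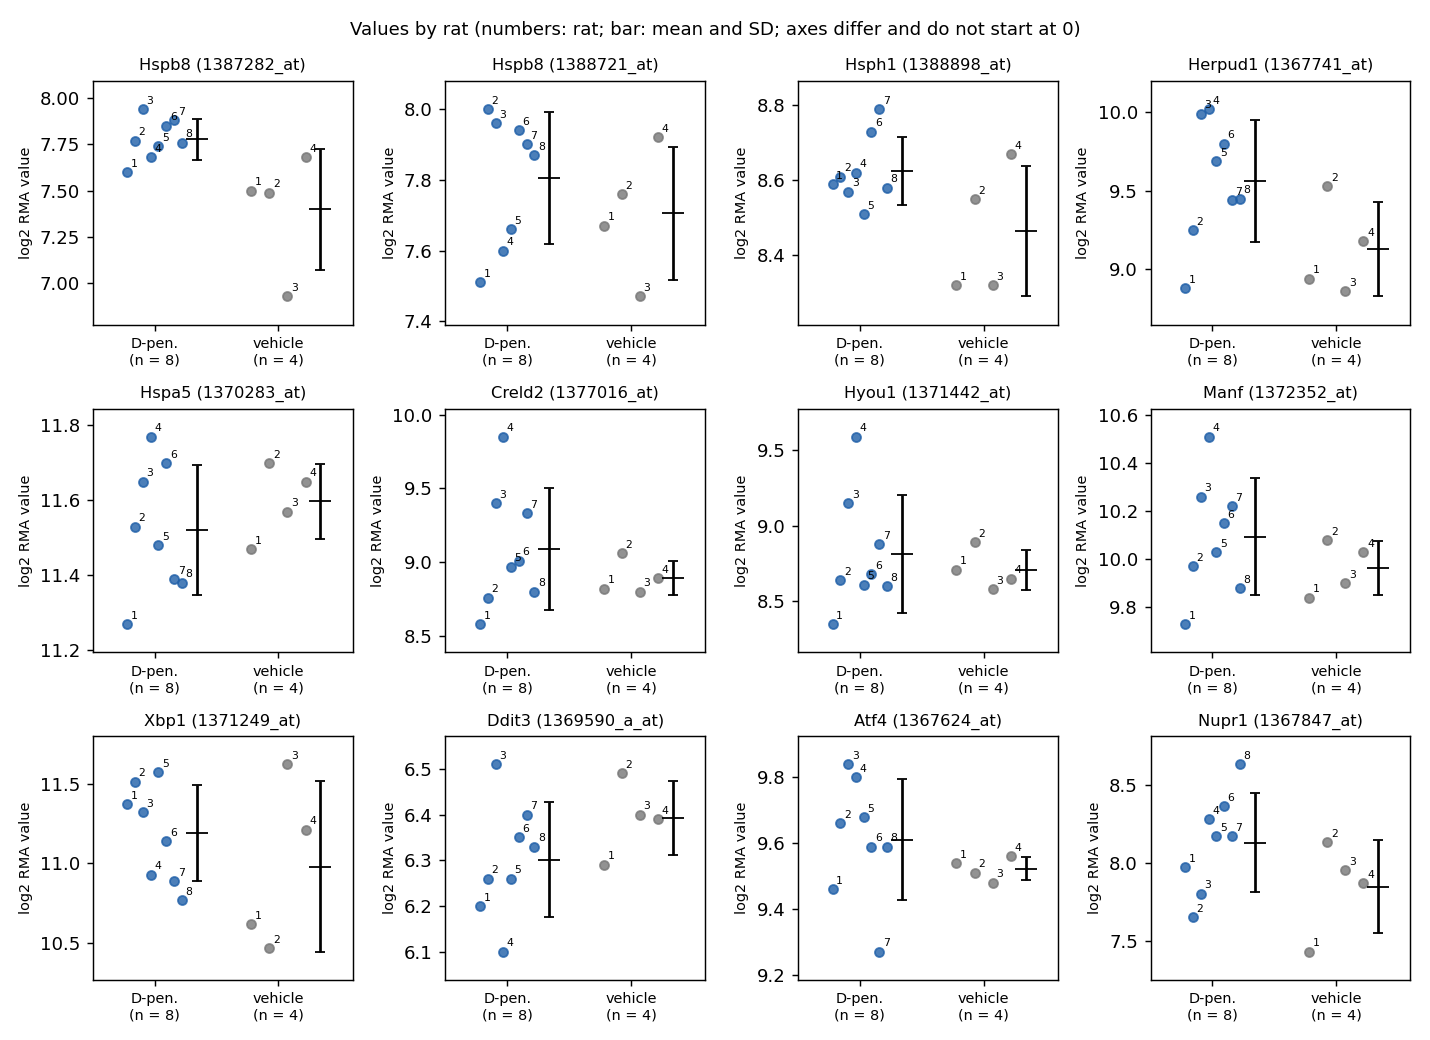
Log2 RMA values of 12 probe sets in each rat, D-penicillamine on the left (n = 8) and vehicle on the right (n = 4), with rat numbers, group mean and SD, each panel on its own axis. Rat 4 is the highest and rat 1 the lowest treated rat for Hspa5, Creld2, Hyou1 and Manf, and vehicle rat 3 is lowest for both probe sets of Hspb8.

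Most ER chaperones shared the same highest and the same lowest treated rat. D-penicillamine rat 4 held the highest value of the 8 treated rats in 12 of 13 genes (92.3%), against 16.2% of all named genes. The exception was Canx, highest in rat 7. D-penicillamine rat 1 held the lowest value in 11 of 13 (84.6%), against 14.6% of all named genes, and Pdia3 and Canx were lowest in rat 5. Both held at once in 11 genes, against 2.09% of all named genes. Among named genes above the median level of all probe sets these shares were 12.6% for rat 4 highest, 21.1% for rat 1 lowest and 2.87% for both. These counts use 1 probe set per gene, were made after the values were seen and describe single rats. The second probe set of Pdia3 was highest in rat 7 and lowest in rat 1, and that of Hyou1 highest in rat 4 and lowest in rat 2. The other probe sets of Canx were highest in rat 7 and lowest in rat 1.

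Rat 4 exceeded every vehicle rat in 11 of the 13 genes, against 23.6% of all named genes, and rat 1 lay under every vehicle rat in 11 of 13, against 25.0%. D-penicillamine rat 3 exceeded every vehicle rat in 8 of the 13 (14.7% of all named genes). The median deviation of the 13 genes from the vehicle mean was 0.34 in rat 4, 0.21 in rat 3, 0.16 in rat 7, 0.05 in rat 6, -0.04 in rat 2, -0.10 in rat 5, -0.11 in rat 8 and -0.31 in rat 1. In vehicle rats 1 to 4 it was -0.07, 0.12, -0.03 and -0.01. Over all named genes the median deviation of rat 4 was -0.035 and that of rat 1 was 0.0075. Rat 4 is also the array farthest from its group over all probe sets, and the part of that in the ER genes was not tested.

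**Figure D3:**
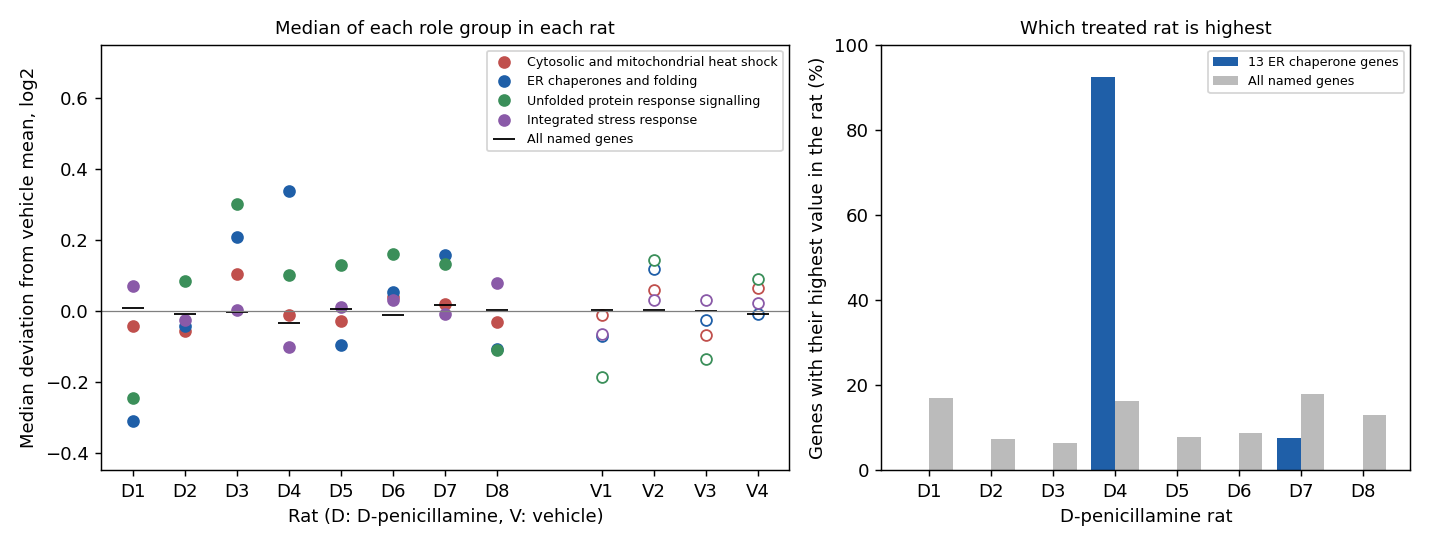
Left, median deviation from the vehicle mean (log2) of the genes of each role in every rat, filled for D-penicillamine and open for vehicle, with black bars for all named genes. Right, percentage of genes with their highest treated value in each D-penicillamine rat, where rat 4 holds 92.3% of the 13 ER chaperone genes and 16.2% of all named genes.

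The SD was higher in treated than in vehicle rats for 11 of 13 ER chaperones (84.6%), against 67.1% of all named genes. It was at least 2 times as large for 6 of 13 (46.2%), against 24.2%. Creld2 had an SD of 0.41 in D-penicillamine rats and 0.12 in vehicle rats. Hyou1 had an SD of 0.39 in D-penicillamine rats and 0.13 in vehicle rats, and Hsp90b1 0.23 in D-penicillamine rats and 0.079 in vehicle rats. For the 20 heat shock genes the SD was higher in treated rats in 8 (40.0%), and for the 10 integrated stress response genes in 9. It was higher in 3 of the 5 unfolded protein response genes, with 0 at least 2 times as large. Over all 48 genes it was higher in 64.6% and at least 2 times as large in 22.9%, both near the shares of all named genes. The SD in vehicle rats rests on 4 animals, and the difference in spread was not tested.

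**Figure D4:**
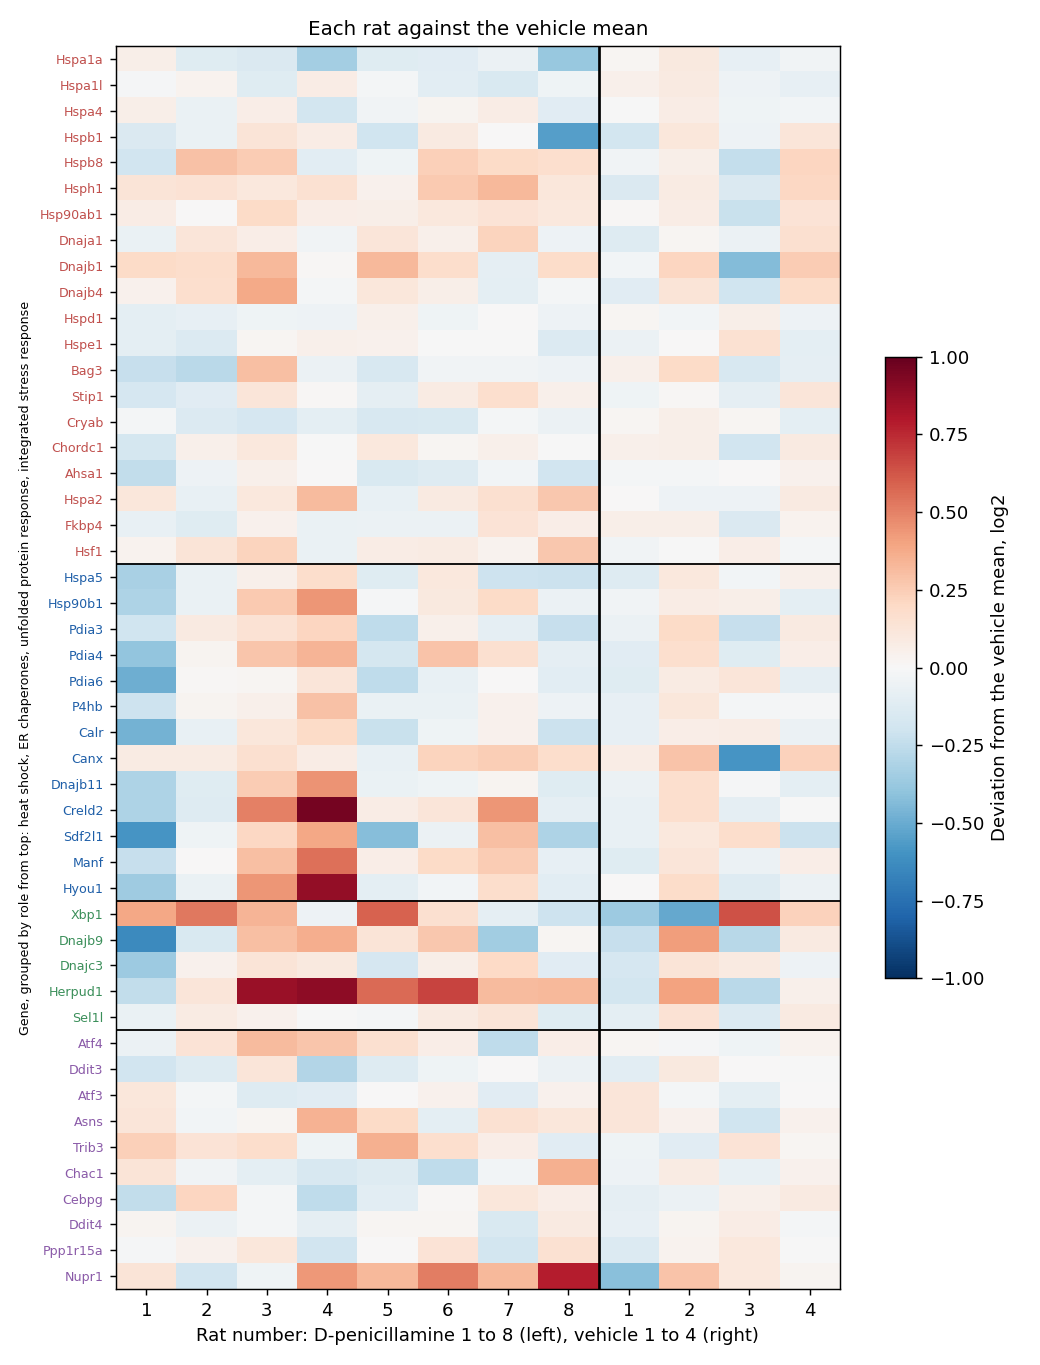
Deviation of every rat from the vehicle mean (log2, red higher, blue lower) for 48 genes, in columns for D-penicillamine rats 1 to 8 and then vehicle rats 1 to 4, with roles separated by lines. Red cells of rat 4 and blue cells of rat 1 run through most ER chaperones from Hspa5 to Hyou1, whereas Herpud1 is red in 7 of the 8 D-penicillamine columns.

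The genes of unfolded protein response signalling and ER-associated degradation numbered 5, with 3 positive and 2 negative differences and a median of 0.018. Herpud1, which organises the removal of misfolded ER proteins, had the largest difference of all members. It ran from 8.88 over 9.57 to 10.02 in D-penicillamine rats, against 8.94, 9.53, 8.86 and 9.18 in vehicle rats. Of the treated rats 7 lay above the vehicle mean and 4 above every vehicle rat, with rats 3 and 4 at 9.99 and 10.02. The difference was 0.44 (SE 0.19, 1.35-fold, 95% interval 1.03 to 1.78-fold, unadjusted p = 0.033), and it did not pass over all probe sets (adjusted p = 0.781 in limma). Without single rats it ran from 0.35 to 0.57.

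Xbp1, whose messenger is spliced by IRE1 to give the active factor, ran from 10.77 over 11.23 to 11.57 in D-penicillamine rats, against 10.62, 10.47, 11.62 and 11.21 in vehicle rats. The vehicle rats spanned 2.22-fold, more than the 1.74-fold of the treated rats, and covered all treated values. The difference was 0.21 (SE 0.20), and it was 0.0875 without vehicle rat 1, 0.0375 without vehicle rat 2 and 0.42 without vehicle rat 3. The values give no separate reading of the spliced form. Dnajb9, an Hsp40 that restrains IRE1, spanned 6.79 to 7.79 in D-penicillamine rats and 7.15 to 7.85 in vehicle rats, and differed by -0.0075 (SE 0.18). Dnajc3, an inhibitor of eIF2 kinases and a BiP co-chaperone, was at -0.01 (SE 0.09). Sel1l, the adaptor of the degradation ligase, ran from 8.89 over 9.03 to 9.14 in D-penicillamine rats, against 8.91, 9.15, 8.87 and 9.10 in vehicle rats, a difference of 0.02 (SE 0.06).

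The 7 genes with the ER stress element in the searched form did not share a direction. Their differences ran from -0.08 (Calr) to 0.21 (Xbp1), with 4 positive, 3 negative and a median of 0.07. Rat 4 was the highest treated rat in 4 of them and rat 1 the lowest in 5.

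The integrated stress response genes numbered 10, with 5 positive and 5 negative differences and a median of -0.0075. None of the 10 reached an unadjusted p under 0.05, against 6.36% of all named genes, so a count of 0 is near that share. Atf4, the factor at its centre, ran from 9.27 over 9.63 to 9.84 in D-penicillamine rats, against 9.54, 9.51, 9.48 and 9.56 in vehicle rats. The treated rats stood on both sides of the narrow vehicle range, 6 above it and 2 below, and the difference was 0.09 (SE 0.09), or 0.056 without D-penicillamine rat 3 and 0.14 without D-penicillamine rat 7. ATF4 is controlled mainly in translation, which these values do not measure.

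Ddit3, which encodes the pro-apoptotic factor CHOP, ran from 6.10 over 6.30 to 6.51 in D-penicillamine rats, against 6.29, 6.49, 6.40 and 6.39 in vehicle rats. Rat 4, the highest in ER chaperones, was the lowest in Ddit3. The difference was -0.09 (SE 0.07, 95% interval 0.850 to 1.04-fold, adjusted p = 0.859 in limma). It was -0.059 without vehicle rat 2 and down to -0.13 without other single rats. Atf3, an early stress factor, ran from 4.42 over 4.54 to 4.66 in D-penicillamine rats, against 4.67, 4.53, 4.45 and 4.55 in vehicle rats, low values with a difference of -0.02 (SE 0.06).

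Asns, the asparagine synthetase induced by ATF4, ran from 5.25 over 5.47 to 5.70 in D-penicillamine rats, against 5.47, 5.39, 5.15 and 5.39 in vehicle rats. The difference was 0.10 (SE 0.08), or 0.035 without vehicle rat 3, 0.066 without D-penicillamine rat 4 and up to 0.14 without other single rats. Trib3, a pseudokinase induced by ATF4 and CHOP, ran from 7.19 over 7.46 to 7.66 in D-penicillamine rats, against 7.26, 7.19, 7.44 and 7.32 in vehicle rats. Its 3 probe sets gave 0.12 (SE 0.08), 0.12 (SE 0.07) and 0.11 (SE 0.10), none past the test. Without vehicle rat 1 the second came to 0.062 and the third to 0.041. Without other single rats the second reached up to 0.15 and the third up to 0.21.

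Nupr1, a small stress-induced nuclear protein, had the largest difference of this role. It ran from 7.65 over 8.17 to 8.63 in D-penicillamine rats, against 7.43, 8.13, 7.95 and 7.87 in vehicle rats. Rat 8 was the highest, 5 treated rats exceeded every vehicle rat, and the difference was 0.28 (SE 0.16, 1.22-fold, adjusted p = 0.826 in limma). It was 0.15 without vehicle rat 1 and up to 0.38 without other single rats. Chac1, which degrades glutathione, was at -0.03 (SE 0.09), and Ppp1r15a, which restores translation by dephosphorylating eIF2, at 0.0075 (SE 0.07). Ddit4, an inhibitor of mTORC1, was at -0.02 (SE 0.05). Cebpg, a dimer partner of ATF4, was at -0.03 (SE 0.08) and, by its second probe set, 0.05 (SE 0.11).

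Further genes of the same pathways were taken from a wider list. Of 89 listed non-members 83 were measured, and 2 higher and 1 lower reached an unadjusted p under 0.05, against 2.73% and 3.63% of all named genes. Their median difference was -0.013, and none passed the adjustment. Higher were Ppp1r15b, the constitutive eIF2 phosphatase subunit, at 0.35 (SE 0.15), and Txndc5, an ER disulfide isomerase, at 0.17 (SE 0.07). Mbtps1, the protease that activates ATF6, was at 0.11 (SE 0.06), and Hsbp1, which binds HSF1, at 0.10 (SE 0.05). On the other side were the Hsp40 gene Dnaja4 at -0.16 (SE 0.07), the collagen chaperone gene Serpinh1 at -0.16 (SE 0.08), Derl2 of ER-associated degradation at -0.13 (SE 0.07) and Hspbp1, an Hsp70 exchange factor, at -0.10 (SE 0.06). All 8 of these values lacked an adjusted p under 0.05 in limma.

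In the 32 measured non-member genes of the ER, rat 4 was the highest treated rat in 10 (31.3%) and rat 1 the lowest in 19 (59.4%), and both held in 6 (18.8%), against 2.09% of all named genes. In the 29 non-member heat shock genes rat 4 was highest in 1 and rat 1 lowest in 15 (51.7%), and both held in 0. In the 22 non-member integrated stress response genes rat 4 was highest in 5 (22.7%) and rat 1 lowest in 8 (36.4%), and both held in 0. Among members, rat 4 was highest in 3 and rat 1 lowest in 6 of the 20 heat shock genes (30.0%), and rat 4 was highest in 1 and rat 1 lowest in 0 of the 10 integrated stress response genes. In the 5 unfolded protein response genes rat 4 was highest in 2 and rat 1 lowest in 3, and both held in 2. The share with rat 1 lowest was above the 14.6% of all named genes in each of the 3 wider lists.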

How the data were processed

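Liver RNA of 12 rats was measured on 1 Affymetrix array each. The deposited table holds log2 values made by the authors with RMA, per the submitters' processing notes, and were used as deposited. The RMA version and any filter are not stated here because no source used gives them. Of 15923 probe sets, 57 array controls were left out. Of the 15866 tested, 12783 had 1 gene symbol, 312 several and 2771 none, and symbols were updated by gene identifier to GRCr8. The deposited scan records, other than measurements, gave chip lot and scan order.

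Groups came from the labels. D-penicillamine was compared with vehicle in limma 3.58.1 (R 4.3.3; lmFit, eBayes, two-sided), adjusted by Benjamini-Hochberg over 15866 probe sets at 0.05, which was tested on simulated data. Differences are D-penicillamine minus vehicle. Arrays carry no counts, so the number of arrays limits precision. The members and lists were chosen with earlier results of these data known. Genes given with values by rat are 13 fixed members where measured, those at an unadjusted p under 0.05 and the 3 largest differences of each role. Hspa2, Hyou1, Sdf2l1 and Dnajb9 were given in more detail after their values were seen. Alternatives were leaving out each rat, a replicate block, median centring, a signal filter, array weights, another prior, an RNA quality covariate and the mean of probe sets. Protein sequences were not used here.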

Additional observations from a re-analysis of the deposited data

Results flagged for a closer look

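Among 118 sets of values (59 probe sets in each group) 8 single rats stood apart from their group by Dixon's criterion at 95%, which chance alone gives in about 1 of 20 sets. In D-penicillamine rats these were Bag3 at 8.36 in rat 3 (next highest 8.02), Chordc1 at 7.28 in rat 1 (next lowest 7.45), and 2 probe sets of Canx in rat 1, at 8.93 (next lowest 9.15) and 9.71 (next lowest 9.95). In vehicle rats they were Chordc1 at 7.26 (next lowest 7.50), Fkbp4 at 9.72 (next lowest 9.90) and the second probe set of Pdia3 at 7.25 (next highest 7.08), all 3 in rat 3, and a probe set of Trib3 at 4.68 in rat 1 (next lowest 4.89). Vehicle rat 3 is the array with the 3' minus 5' control difference of 1.185, and the part of that in these values was not tested. D-penicillamine rat 4 was not among them.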

How the results depend on the processing

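No member probe set reached an adjusted p of 0.05 in limma in any of the 19 alternative fits, in which the smallest adjusted p of a member lay between 0.290 (array weights) and 0.999. Over all probe sets 2 passed with array weights and 1 without D-penicillamine rat 1. The medians of the 4 roles moved by less than their spread between rats in every setting, also on averaging the probe sets of a gene. The 4 of 59 member probe sets at an unadjusted p under 0.05 became 2 with the 3' minus 5' covariate (background 4.91% of all probe sets). They became 7 with array weights (background 8.62%), 2 with a trended robust prior (6.03%) and 0 with the replicate block over rats 1 to 4 (5.89%). Leaving out single rats gave 1 to 5, against a background of 4.49% to 6.90%. It was 1 without vehicle rat 1 or D-penicillamine rat 6, and 2 without D-penicillamine rat 3 or 5. The block rests on shared rat numbers only, since deviations of same-numbered rats correlated at 0.245, -0.164, 0.140 and -0.129. Signs turned in small differences: the probe set standing for Canx was at -0.074 with the covariate, -0.016 with array weights and -0.069 on dropping both vehicle rat 3 and D-penicillamine rat 4, a setting chosen after seeing the data, and -0.076 to 0.21 without single rats. The third probe set of Canx was at -0.0023 with array weights, -0.040 with the block and -0.020 without those 2 rats, and -0.016 to 0.057 without single rats. Sel1l was at -0.019 with the covariate, -0.017 with array weights and -0.025 without those 2 rats, and -0.028 to 0.065 without single rats. Asns was at -0.00095 without those 2 rats, and Atf3 ran from -0.056 to 0.018 without single rats. The cause was not tested.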
